A study of Rattus norvegicus with 24 samples.

Results

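The genes described here encode the Wnt ligands, their receptors and the proteins that raise or dampen Wnt signalling, measured by RNA-seq in dorsal root ganglia (DRG), which hold the cell bodies of sensory neurons. They were chosen by name, as every entry that begins with Wnt, Fzd, Dkk, Sfrp or Rspo followed by a number, together with Lrp5, Lrp6, Lgr4, Lgr5, Sost, Sostdc1, Axin2, Lef1, Wif1, Frzb and Ctnnb1. This gave 51 entries for 49 genes among the 17811 entries of the table, and 41 entries for 40 genes were above 0 FPKM (fragments per kilobase, scaled to the mapped fragments of the library) in all 24 rats. Lgr6, Tcf7 and Axin1 were not analysed here. The DRG came from lumbar levels 4 to 5 of female Sprague-Dawley rats aged 20 weeks. In the OVX-vehicle and OVX-TPTD groups both ovaries had been removed (OVX) at 12 weeks of age, and Sham-vehicle rats were sham-operated at that age. The OVX-TPTD group was given teriparatide (TPTD), the active fragment of parathyroid hormone, under the skin, 3 doses of 30 µg/kg in each of 4 weeks, and both other groups were given saline. Each group held 8 rats, each measured in 1 library. The study selected the OVX rats by average body weight and by a preceding test of paw withdrawal from heat. Sham-vehicle rats were chosen for a withdrawal time near their average in that test. For OVX-vehicle replicate 1 the labels disagree, in that its title says OVX and its surgery entry says sham. Its title was followed here.

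Wnt proteins are secreted lipid-modified ligands that bind a Frizzled receptor together with the co-receptor Lrp5 or Lrp6. In the canonical branch this binding stops the destruction complex, built on axin, from degrading β-catenin, which then enters the nucleus and activates genes with Tcf and Lef factors. R-spondins bind Lgr receptors and keep Frizzled receptors on the cell surface. Sclerostin, Sostdc1 and most Dkk proteins instead bind the co-receptors, and Sfrp proteins, Frzb and Wif1 bind the ligands. The pathway is known in bone, where parathyroid hormone lowers sclerostin, and in sensory ganglia, where Wnt ligands take part in axon growth and in pain sensitivity.

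The total count per rat ranged from 15573490 to 19069925. All 11 neuronal marker genes in the table were above 0 in every rat, with a summed level of 15010 to 18566 FPKM per rat. Ganglia are a mixture of cells, and in bulk tissue fewer cells of a type and less RNA per cell cannot be told apart. Nothing in the sources used here names a sequencing batch.

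The start regions of 2 genes are given as a description of their letters. Axin2, a common direct target of β-catenin, and Rspo3, the member with the largest difference past an unadjusted p of 0.05 in 2 of the 3 comparisons, are given from 250 bases before to 50 after the RefSeq start (build GRCr8, both on the plus strand, chr10:94398535-94398834 and chr1:30112279-30112578). Capitals mark the letters CTTTGA or their reverse complement TCAAAG, the core to which Tcf and Lef factors bind, and both strands were searched.
Axin2: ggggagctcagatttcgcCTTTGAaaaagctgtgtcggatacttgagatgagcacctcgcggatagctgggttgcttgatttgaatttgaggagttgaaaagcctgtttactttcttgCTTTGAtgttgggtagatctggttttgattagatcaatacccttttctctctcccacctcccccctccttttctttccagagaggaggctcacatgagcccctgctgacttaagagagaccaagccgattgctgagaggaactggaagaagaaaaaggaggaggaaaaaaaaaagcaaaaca
Rspo3: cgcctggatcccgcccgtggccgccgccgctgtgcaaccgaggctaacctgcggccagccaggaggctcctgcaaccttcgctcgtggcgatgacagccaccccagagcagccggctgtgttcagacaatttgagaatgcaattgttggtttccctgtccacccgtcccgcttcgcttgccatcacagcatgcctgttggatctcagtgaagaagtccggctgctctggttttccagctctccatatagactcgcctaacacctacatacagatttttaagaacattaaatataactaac
The Axin2 window held 2 matches and the Rspo3 window held 0. Of the 33 member genes with a window in the RefSeq table, 3 (9.09%) held a match (Axin2, Dkk1 and Wnt8a), against 16.1% of all 33469 windows of this length. The remaining 16 member genes had no window. A match in a window is a description of the letters and not a binding site. A window without a match does not show that Tcf and Lef factors leave the gene alone.

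The DRG held far more transcript for inhibitors and for β-catenin than for the ligands. Ctnnb1, which encodes β-catenin, and Sfrp5, which encodes a secreted decoy that binds Wnt ligands, had the highest levels, at means of 137 and 127 FPKM over the 24 rats. They lay at the 95.3 and 94.8 percentiles of the 13024 entries above 0 in all rats. The middle member was much lower, with a median of 2.47 FPKM over the 40 genes against 9.57 FPKM over all 13024 entries. In 11 of the 40 genes the mean was under 1 FPKM and in 7 it was 10 FPKM or more.

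**Figure D1:**
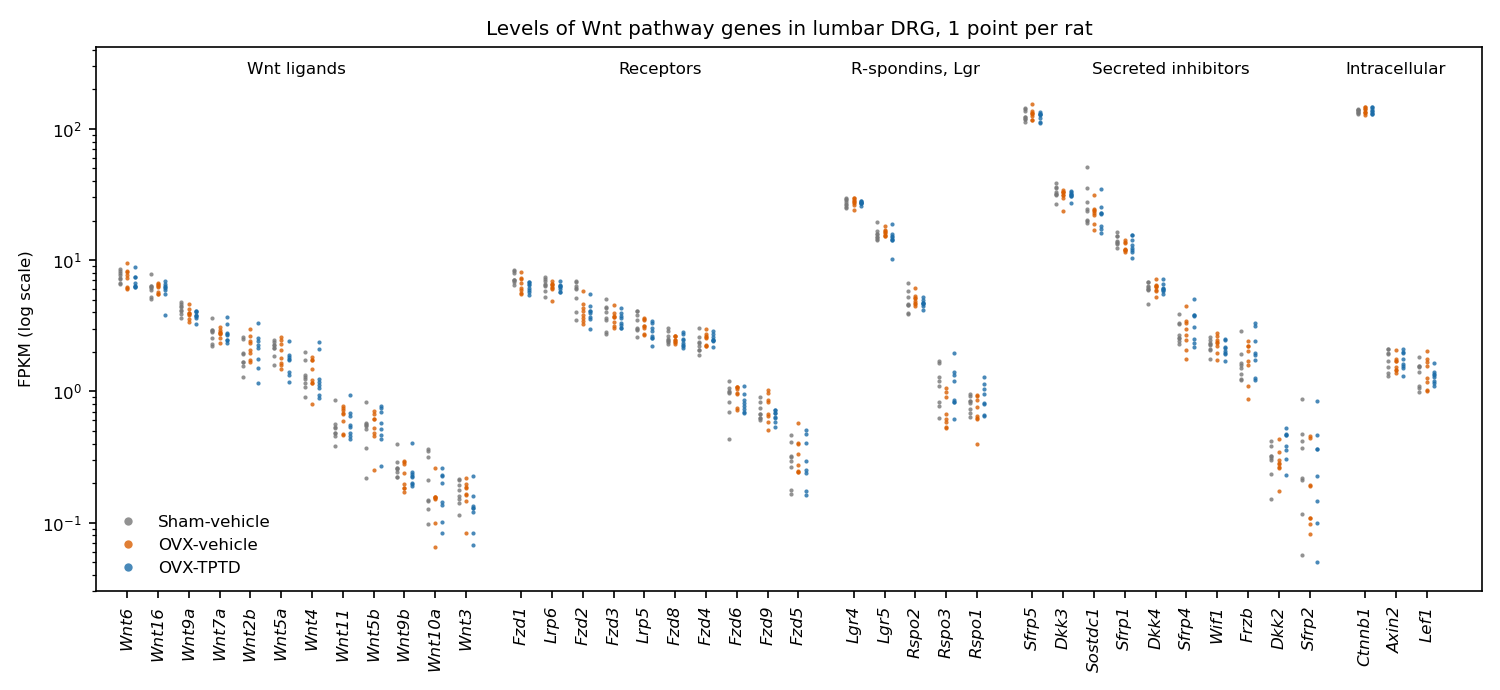
FPKM of the 40 Wnt pathway genes above 0 in all 24 rats (log axis), 1 point per rat, by role and from the highest to the lowest mean, with grey for Sham-vehicle, orange for OVX-vehicle and blue for OVX-TPTD rats. Levels run from 0.157 FPKM for Wnt3 to 137 FPKM for Ctnnb1 on average, and in every gene the 3 groups overlap.

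Of the 18 Wnt ligand genes, 12 were above 0 in all rats, and they shared their transcripts unequally. Wnt6 made up 26.8% of the summed FPKM of these 12 ligands on average and Wnt16 made up 22.3%, followed by Wnt9a (14.7%) and Wnt7a (10.2%). Wnt6 was measured at 6.59, 7.51 and 8.51 FPKM (lowest, median and highest of 8 rats) in the Sham-vehicle group, at 5.99, 7.54 and 9.43 FPKM in the OVX-vehicle group and at 6.28, 6.56 and 8.83 FPKM in the OVX-TPTD group. Wnt16 was at 5.07, 6.17 and 7.86 FPKM, at 5.48, 6.30 and 6.66 FPKM and at 3.83, 6.17 and 6.91 FPKM in the same order of groups. The 3 groups overlapped in both ligands, and no comparison of either had an unadjusted p under 0.05. The share of Wnt6 ranged from 22.5% to 32.9% among rats and that of Wnt16 from 16.6% to 27.2%, so these ranges overlap.

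The summed FPKM of the 12 ligands was 26.4, 27.6 and 29.6 (lowest, median and highest) in the Sham-vehicle group, 25.8, 27.5 and 29.4 in the OVX-vehicle group and 23.1, 27.0 and 28.0 in the OVX-TPTD group. The ranges of the sum overlapped, and the lowest rat was OVX-TPTD replicate 6. Wnt2b, Wnt5a and Wnt4 lay between 1.36 and 2.09 FPKM on average, while Wnt11, Wnt5b, Wnt9b, Wnt10a and Wnt3 were under 1 FPKM. The other 6 ligands were at 0 in some rats. Wnt7b was at 0 in 3 rats, Wnt8b in 6, Wnt10b in 7, Wnt8a in 18, Wnt3a in 21 and Wnt1 in 22, and a 0 count in 1 library does not show that a gene is silent. Their mean counts per rat were 3.58 or less, too few to compare the groups.

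**Figure D2:**
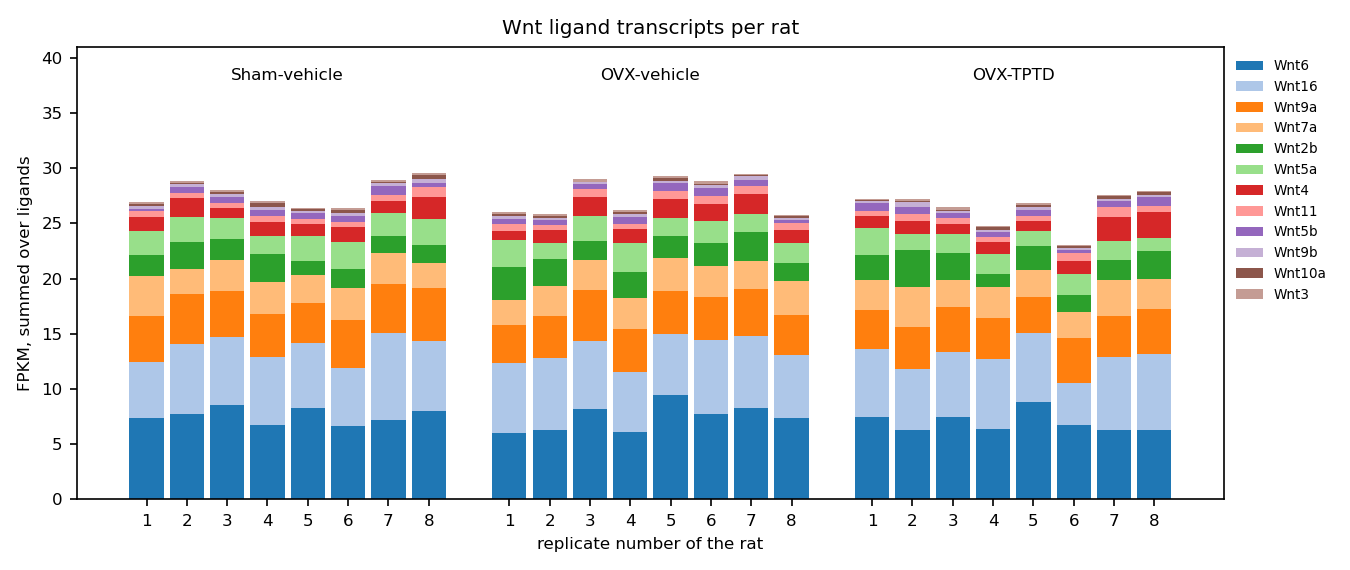
FPKM of the 12 Wnt ligands above 0 in all rats, stacked for each of the 24 rats, with the rats numbered by replicate within each group. Wnt6 and Wnt16 form the lower part of every bar, and the whole bar runs from 23.1 to 29.6 FPKM.

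Among the receptors, Fzd1 and the co-receptor gene Lrp6 led, with means of 6.72 and 6.32 FPKM over the 24 rats. Both were present in every rat, as were 8 other receptor genes, from Fzd2 at 4.58 FPKM to Fzd5 at 0.319 FPKM. Lrp6 was at 5.25, 6.47 and 7.47 FPKM in the Sham-vehicle group, at 4.87, 6.35 and 6.96 FPKM in the OVX-vehicle group and at 5.70, 6.29 and 6.98 FPKM in the OVX-TPTD group (lowest, median and highest), and the groups overlapped. Fzd10 was at 0 in 6 rats. Fzd8 has 2 entries at separate places on chromosome 17 with almost the same values, at mean counts of 146 each, so that its reads may have been divided between 2 copies of the same sequence and its level is uncertain.

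Fzd2 (chromosome 10 of rn6, 90550147 to 90552057, plus strand), a Frizzled receptor that can act in β-catenin-dependent and independent branches, was lower in both OVX groups than in the Sham-vehicle group before adjustment. It was at 3.50, 6.06 and 6.88 FPKM in the Sham-vehicle group (lowest, median and highest), at 3.26, 3.96 and 5.77 FPKM in the OVX-vehicle group and at 2.96, 4.0 and 5.49 FPKM in the OVX-TPTD group. All 8 OVX-vehicle rats and all 8 OVX-TPTD rats lay below the Sham-vehicle median, but Sham-vehicle replicates 1 and 7 lay among the OVX rats, so the groups overlapped. The log2 difference for OVX-vehicle against Sham-vehicle was −0.45 (SE 0.14, unadjusted p = 0.0025 and adjusted p = 0.806 from edgeR), and the exact permutation p on log2(FPKM) was 0.0208. For OVX-TPTD against Sham-vehicle it was −0.49 (SE 0.14, unadjusted p = 0.00139 and adjusted p = 0.221 from edgeR; exact permutation p = 0.0155). For OVX-TPTD against OVX-vehicle it was −0.03 (SE 0.14), so the interval of 2 SE on either side ran from −0.31 to 0.25. Both differences from the Sham-vehicle group use the same Sham-vehicle libraries.

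Across rats, Fzd2 was related to each of 10 lists of cell type markers, and its pair with the list of fibroblast and connective tissue genes had the smallest p but did not pass after adjustment. After removing group means, r was 0.57 (permutation p = 0.00174, adjusted p = 0.174 over 400 pairs of members and marker lists) and rho was 0.58 (permutation p = 0.00251, adjusted p = 0.165), with r = 0.54 without the 2 rats farthest from the median of the list. Within the groups r was 0.49 in the Sham-vehicle, 0.73 in the OVX-vehicle and 0.69 in the OVX-TPTD group. All 9 genes of the list were above 0 in every rat, and their summed level was 566 to 920 FPKM in the Sham-vehicle group, 631 to 854 FPKM in the OVX-vehicle group and 608 to 1028 FPKM in the OVX-TPTD group. The list showed median log2 differences of −0.08 and −0.04 in the OVX-vehicle and OVX-TPTD groups against the Sham-vehicle group. The part of these cells in the difference of Fzd2 was not tested.

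Fzd1 (chromosome 4, 26470864 to 26475262, plus strand), a close relative of Fzd2, was measured with more counts and a smaller difference. It was at 6.46, 7.02 and 8.41 FPKM in the Sham-vehicle group, at 5.52, 6.40 and 8.06 FPKM in the OVX-vehicle group and at 5.46, 6.31 and 6.82 FPKM in the OVX-TPTD group. All 8 OVX-TPTD rats were below the Sham-vehicle median, and 4 of them were below every Sham-vehicle rat, although the ranges overlapped. The log2 difference for OVX-vehicle against Sham-vehicle was −0.18 (SE 0.073, unadjusted p = 0.0208 and adjusted p = 0.864 from edgeR). The exact permutation p of that comparison was 0.0601, above 0.05. For OVX-TPTD against Sham-vehicle the log2 difference was −0.25 (SE 0.073, unadjusted p = 0.00211 and adjusted p = 0.225 from edgeR; exact permutation p = 0.00171).

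Lrp5, the co-receptor whose loss weakens bone, was at 2.59, 3.27 and 4.12 FPKM in the Sham-vehicle group, at 2.71, 3.15 and 3.61 FPKM in the OVX-vehicle group and at 2.21, 2.76 and 3.46 FPKM in the OVX-TPTD group. The OVX-TPTD rats tended to the lower end, with 3 of 8 below every Sham-vehicle rat, and overlapped with the rest. Its log2 difference for OVX-TPTD against Sham-vehicle was −0.27 (SE 0.10, unadjusted p = 0.0129 and adjusted p = 0.269 from edgeR). The exact permutation p was 0.0493, and it was above 0.05 without any 1 of Sham-vehicle replicates 2, 3, 6 and 8 or of OVX-TPTD replicates 1, 3, 4, 5, 6 and 8, reaching 0.101 without OVX-TPTD replicate 8. In the OVX-TPTD group against the OVX-vehicle group, all 11 receptor entries had a negative log2 difference (median −0.05, lowest −0.23). The median over all entries tested was 0.00. These 11 entries stand for 10 genes, because Fzd8 is in them 2 times with almost the same values (−0.033 and −0.034). Lrp6 (−0.0012) and Fzd4 (−0.0067) were near 0. The negative entries were 10 of 11 in 8 of the 9 other settings tried with all rats, among them DESeq2 and no TMM scaling. None of the 11 had an unadjusted p under 0.05 from edgeR.

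Of the R-spondin axis, the receptor gene Lgr4 was the most abundant. It was at 25.01, 27.2 and 29.9 FPKM in the Sham-vehicle group, at 23.9, 28.0 and 29.8 FPKM in the OVX-vehicle group and at 25.8, 27.4 and 28.3 FPKM in the OVX-TPTD group (lowest, median and highest), with a coefficient of variation of 5.58% over the 24 rats. Lgr5, a stem cell marker in gut and skin, was at 14.2, 15.4 and 19.5 FPKM, at 15.2, 16.3 and 18.1 FPKM and at 10.1, 14.7 and 18.9 FPKM in the same order. The groups overlapped in both receptors. Among the ligands of this axis, Rspo2 led with a mean of 4.89 FPKM over the 24 rats, followed by Rspo3 with 1.004 FPKM and Rspo1 with 0.814 FPKM.

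Rspo3 (chromosome 1 of rn6, 30682049 to 30765160, plus strand) had the widest difference of any member with an unadjusted p under 0.05, and it was low in the OVX-vehicle group. The lowest, median and highest rat stood at 0.623, 1.14 and 1.71 FPKM in the Sham-vehicle group, at 0.528, 0.648 and 1.07 FPKM in the OVX-vehicle group and at 0.618, 1.03 and 1.97 FPKM in the OVX-TPTD group. All 8 OVX-vehicle rats lay below the Sham-vehicle median and 7 of 8 OVX-TPTD rats lay above the OVX-vehicle median, whereas the ranges of the 3 groups overlapped. The log2 difference for OVX-vehicle against Sham-vehicle was −0.64 (SE 0.24, unadjusted p = 0.0136 and adjusted p = 0.864 from edgeR; exact permutation p = 0.0233). For OVX-TPTD against OVX-vehicle it was 0.62 (SE 0.24, unadjusted p = 0.0169 and adjusted p = 0.995 from edgeR; exact permutation p = 0.0309), and for OVX-TPTD against Sham-vehicle it was −0.03 (SE 0.23). The first and second of these use the same OVX-vehicle libraries. Rspo3 was counted at 10 to 39 reads per rat, so 1 library has weight: without OVX-TPTD replicate 2, the highest rat, the difference was 0.47 (unadjusted p = 0.059 from edgeR), and the permutation p was 0.05 or more without any 1 of OVX-TPTD replicates 2, 3, 4 and 5 or of OVX-vehicle replicates 1, 3, 5 and 6, up to 0.0598. With OVX-vehicle replicate 1 counted as a Sham-vehicle rat, the difference for OVX-vehicle against Sham-vehicle was −0.50 (unadjusted p = 0.0694 from edgeR).

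**Figure D3:**
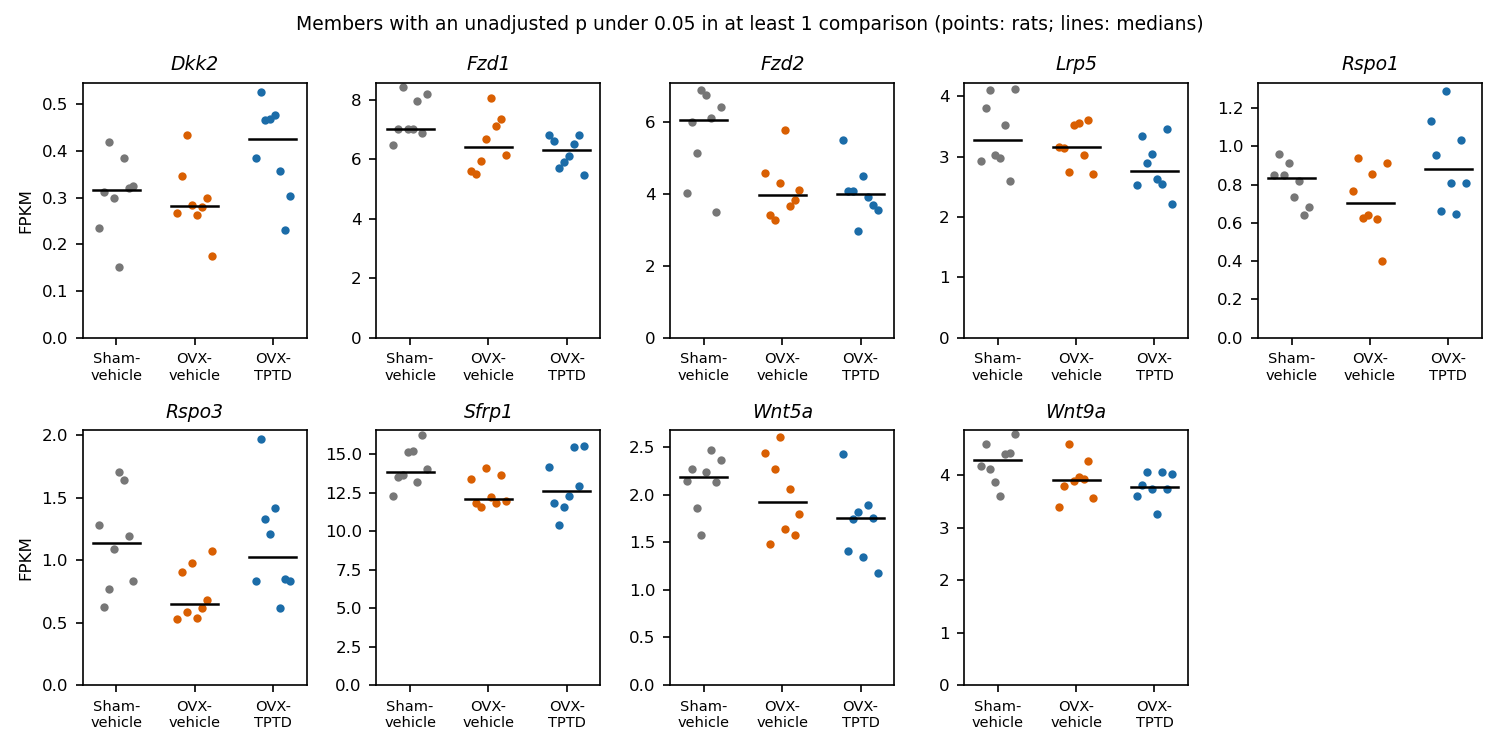
FPKM (linear axis from 0) of the 9 members with an edgeR p under 0.05 before adjustment or past the permutation thresholds in at least 1 comparison, 1 point per rat and a line at the median of 8 rats. In Rspo3 the OVX-vehicle median is 0.648 FPKM, below medians of 1.14 and 1.03 FPKM, and in Fzd2 the Sham-vehicle median is 6.06 FPKM, above 3.96 and 4.0 FPKM.

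Rspo1 was at 0.641, 0.832 and 0.961 FPKM in the Sham-vehicle group, at 0.399, 0.704 and 0.938 FPKM in the OVX-vehicle group and at 0.646, 0.881 and 1.29 FPKM in the OVX-TPTD group. OVX-TPTD rats were on the high side, with 4 of 8 above every OVX-vehicle rat, but the others overlapped. The log2 difference for OVX-TPTD against OVX-vehicle was 0.35 (SE 0.17, unadjusted p = 0.0441 and adjusted p = 0.995 from edgeR), with an exact permutation p of 0.0822. Its p was above 0.05 without any 1 of 8 libraries (OVX-vehicle replicates 3, 4, 6 and 7 and OVX-TPTD replicates 1, 2, 4 and 7), up to 0.126 without OVX-TPTD replicate 4. Rspo2, at the highest level of the R-spondins, had log2 differences of 0.03, −0.11 and −0.08 in the OVX-vehicle against Sham-vehicle, the OVX-TPTD against OVX-vehicle and the OVX-TPTD against Sham-vehicle comparison.

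The secreted inhibitors ranged most widely in level. Sfrp5 was at 113, 123 and 144 FPKM in the Sham-vehicle group, at 116, 131 and 154 FPKM in the OVX-vehicle group and at 110, 128 and 134 FPKM in the OVX-TPTD group (lowest, median and highest) and made up 60.5% of the summed FPKM of 10 inhibitors. Dkk3, a divergent Dkk protein, was counted with the inhibitors by its name and made up 15.1% of that sum. It was at 26.7, 32.5 and 38.4 FPKM, at 23.6, 32.0 and 34.1 FPKM and at 27.2, 31.5 and 33.9 FPKM in the same order. The groups overlapped for both Sfrp5 and Dkk3. The sum over 10 inhibitors was 201 to 252 FPKM in the Sham-vehicle group, 198 to 232 FPKM in the OVX-vehicle group and 196 to 222 FPKM in the OVX-TPTD group. Sostdc1, an inhibitor related to sclerostin, reached 51.2 FPKM in 1 Sham-vehicle rat, and its coefficient of variation was 31.4% over the 24 rats. Sost, which encodes sclerostin itself, was at 0 in 22 rats, and Dkk1, another inhibitor active in bone, was at 0 in 4 rats and had a mean count below 1 in each of its 2 entries.

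Sfrp1, which is mostly described as an antagonist of Wnt ligands, was at 12.3, 13.8 and 16.3 FPKM in the Sham-vehicle group, at 11.6, 12.1 and 14.1 FPKM in the OVX-vehicle group and at 10.4, 12.6 and 15.6 FPKM in the OVX-TPTD group. OVX-vehicle rats lay low, with 5 of 8 below every Sham-vehicle rat, and 3 OVX-vehicle rats overlapped with the Sham-vehicle group. The log2 difference for OVX-vehicle against Sham-vehicle was −0.18 (SE 0.073, unadjusted p = 0.0177 and adjusted p = 0.864 from edgeR; exact permutation p = 0.0165).

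Dkk2, which binds the Lrp co-receptors, was at 0.152, 0.316 and 0.420 FPKM in the Sham-vehicle group, at 0.174, 0.282 and 0.433 FPKM in the OVX-vehicle group and at 0.232, 0.426 and 0.526 FPKM in the OVX-TPTD group. OVX-TPTD rats were high, 7 of 8 above the OVX-vehicle median and 4 of 8 above every OVX-vehicle rat, but the groups overlapped. The log2 difference for OVX-TPTD against OVX-vehicle was 0.45 (SE 0.19, unadjusted p = 0.0248 and adjusted p = 0.995 from edgeR; exact permutation p = 0.0371). Dkk2 was counted at 9 to 32 reads per rat. Its edgeR p was 0.0567 without OVX-vehicle replicate 8 and 0.0553 without OVX-TPTD replicate 2, and the permutation p was 0.05 or more without any 1 of OVX-TPTD replicates 2, 3, 4 and 5 or of OVX-vehicle replicates 1, 4, 5, 6 and 8, up to 0.0732.

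Wnt5a, a ligand best known for β-catenin-independent signalling, and Wnt9a were the ligands with a difference past the unadjusted threshold, both for OVX-TPTD against Sham-vehicle. Wnt5a was at 1.58, 2.19 and 2.48 FPKM in the Sham-vehicle group, at 1.48, 1.93 and 2.61 FPKM in the OVX-vehicle group and at 1.17, 1.75 and 2.43 FPKM in the OVX-TPTD group, with a log2 difference of −0.34 (SE 0.14, unadjusted p = 0.0208 and adjusted p = 0.289 from edgeR; exact permutation p = 0.0246). Wnt9a was at 3.60, 4.29 and 4.78 FPKM, at 3.39, 3.91 and 4.603 FPKM and at 3.27, 3.78 and 4.07 FPKM in the same order, with a log2 difference of −0.17 (SE 0.065, unadjusted p = 0.0123 and adjusted p = 0.269 from edgeR; exact permutation p = 0.0185). In both ligands the OVX-TPTD rats lay low, 7 of 8 and 8 of 8 below the Sham-vehicle median, but overlapped with it.

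In the intracellular members no comparison had an unadjusted p under 0.05. Ctnnb1 was at 131, 137 and 141 FPKM in the Sham-vehicle group, at 128, 138 and 146 FPKM in the OVX-vehicle group and at 130, 136 and 146 FPKM in the OVX-TPTD group. Axin2, whose transcript is used as a readout of β-catenin activity, was at 1.30, 1.81 and 2.12 FPKM, at 1.38, 1.61 and 2.05 FPKM and at 1.32, 1.68 and 2.10 FPKM in the same order, so the groups overlapped in both. The log2 difference of Axin2 was −0.12 for OVX-vehicle against Sham-vehicle, with an interval of 2 SE on either side from −0.35 to 0.11. It was 0.09 for OVX-TPTD against OVX-vehicle, with an interval from −0.14 to 0.32. Lef1, which encodes a nuclear partner of β-catenin, had a mean of 1.37 FPKM.

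Over all members, the edgeR quasi-likelihood test, run on counts with Benjamini-Hochberg adjustment over 12645 entries, called 0 of the 41 member entries in each of the 3 comparisons. The background was 0.00791% of all entries tested for OVX-vehicle against Sham-vehicle, 0% for OVX-TPTD against OVX-vehicle and 0.0316% for OVX-TPTD against Sham-vehicle, and the smallest adjusted p of a member was 0.806, 0.995 and 0.221. Before adjustment, 4 members had a p under 0.05 for OVX-vehicle against Sham-vehicle, all lower (9.76% of 41, against 4.82% of all entries, of which 2.46% lower and 2.36% higher), and with OVX-vehicle replicate 1 counted as a Sham-vehicle rat 2 did. With TPTD against the OVX-vehicle group, 3 did, all higher (7.32% against 3.65%, of which 1.95% higher and 1.7% lower), but without OVX-TPTD replicate 2 this count was 0. For OVX-TPTD against Sham-vehicle 5 did, all lower (12.2% against 15.1% of all entries, of which 8.02% lower and 7.08% higher). DESeq2 gave 4, 2 and 5 such members and limma on log2(FPKM + 0.1) gave 4, 3 and 5, and neither called a member after adjustment.

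By the permutation thresholds, an exact p under 0.05 with a log2 difference over 0.25 in size, 2 of 41 members passed for OVX-vehicle against Sham-vehicle (Rspo3 and Fzd2, both lower), where 1.52% of the 13024 entries above 0 did (0.729% higher and 0.791% lower). Rspo3 and Dkk2 passed for OVX-TPTD against OVX-vehicle, both higher, against 1.5% of all entries (0.891% higher and 0.607% lower), and Lrp5, Fzd2 and Wnt5a passed for OVX-TPTD against Sham-vehicle, all lower, against 2.74% (1.64% higher and 1.1% lower). No member passed this test after adjustment, with smallest adjusted p of 0.853, 0.998 and 0.336, and the smallest p that the 12870 divisions of 16 rats can give is 0.000155. In 0 of the 41 members did any 2 groups not overlap, against 0.0154%, 0.00768% and 0.0921% of all entries in the 3 comparisons.

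Most members had small differences. The log2 difference was negative for 24 of 41 members for OVX-vehicle against Sham-vehicle, for 28 for OVX-TPTD against OVX-vehicle and for 28 for OVX-TPTD against Sham-vehicle. The medians were −0.03, −0.03 and −0.09, against 0.00 over all entries in each comparison. In the last comparison the receptors had a median of −0.13, with 9 of 11 entries negative, both Fzd8 entries among them. The ligands had one of −0.09, with 7 of 12 negative. The member with the largest difference in size for OVX-vehicle against Sham-vehicle was Sfrp2 (−0.69, SE 0.50, at a mean of 0.290 FPKM), for OVX-TPTD against OVX-vehicle it was Rspo3 and for OVX-TPTD against Sham-vehicle it was Fzd2.

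**Figure D4:**
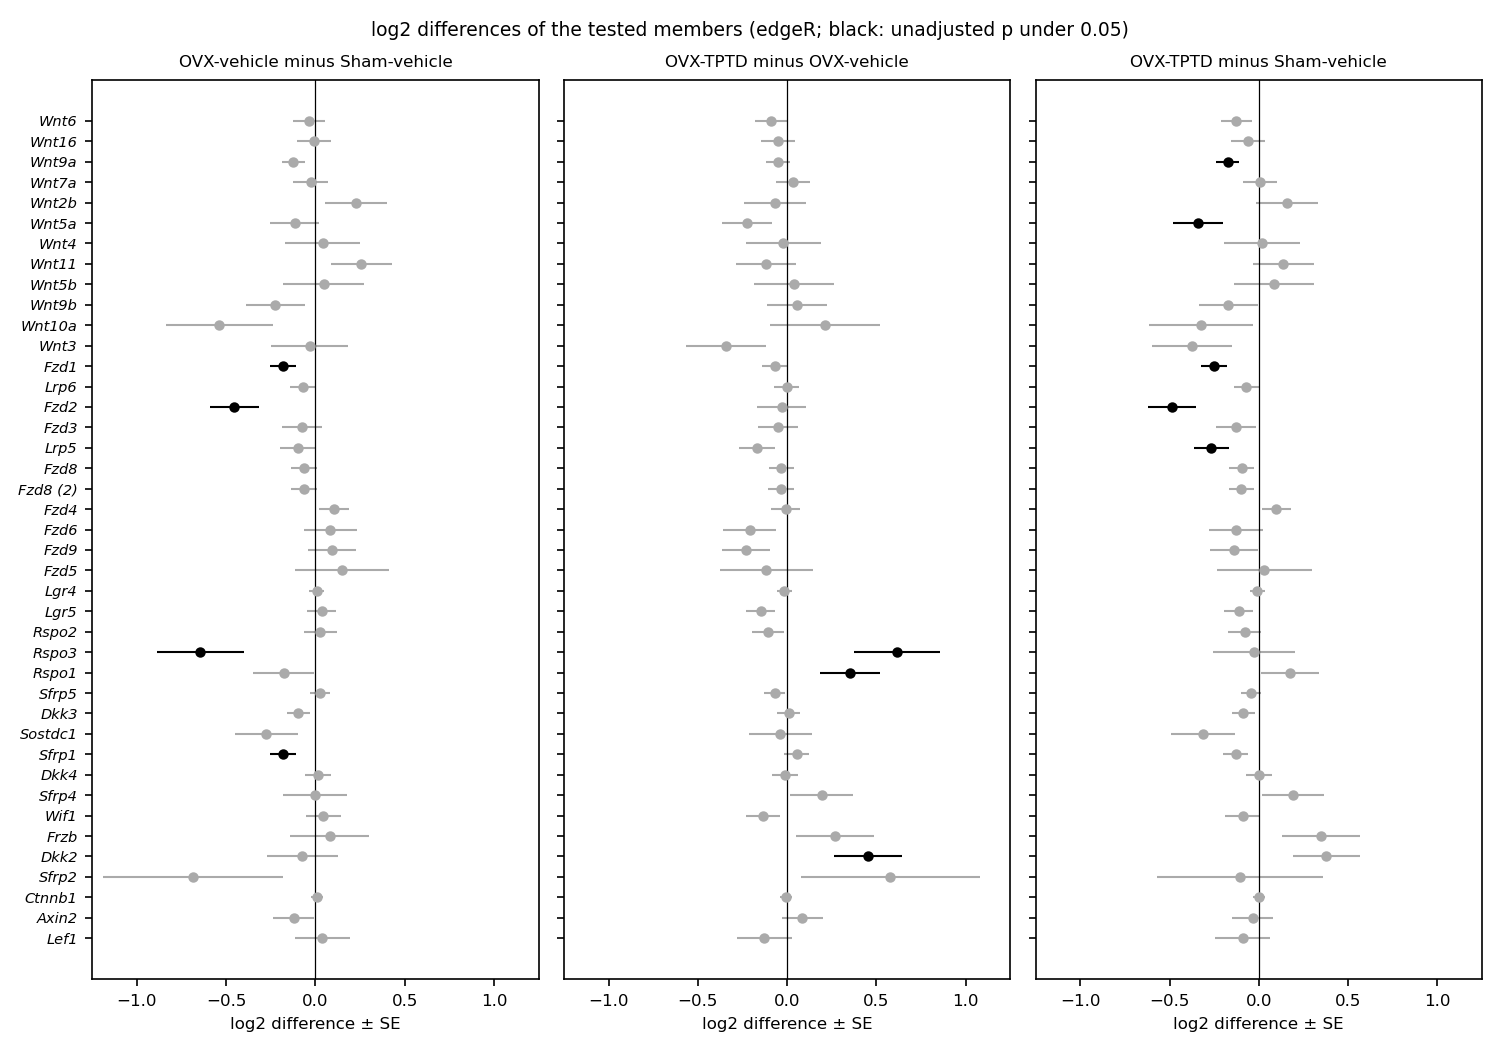
log2 differences of the 41 tested members from edgeR, with bars of 1 SE, for OVX-vehicle minus Sham-vehicle, OVX-TPTD minus OVX-vehicle and OVX-TPTD minus Sham-vehicle, ordered by role and level, in black where the unadjusted p was under 0.05. The 4 black points of the first panel and the 5 of the last lie below 0, and the 3 in the middle are positive. The panels share libraries.

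A wider list of 72 Wnt pathway genes, from secretion to nuclear partners and planar polarity, had 64 in the table and 62 tested, with 0 called in any comparison by edgeR. For OVX-vehicle against Sham-vehicle 0 were higher and 4 lower at an unadjusted p under 0.05, where 2.36% of all entries were higher and 2.46% lower. The lower genes were Pygo2 (log2 difference −0.13, SE 0.050) and Bcl9l (−0.13, SE 0.061), which encode nuclear partners of β-catenin, the signal transducer gene Dvl3 (−0.18, SE 0.080) and the planar polarity gene Prickle2 (−0.10, SE 0.046). With TPTD against the OVX-vehicle group, 1 gene was higher, the glypican gene Gpc3 (0.27, SE 0.098), and 1 was lower, the planar polarity cadherin gene Celsr2 (−0.22, SE 0.084), against 1.95% and 1.7% of all entries.

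For OVX-TPTD against Sham-vehicle, 0 genes of this wider list were higher and 11 of 62 were lower at an unadjusted p under 0.05, where 7.08% of all entries were higher and 8.02% lower. The 4 with the smallest p were Bcl9l, Pygo2, Prickle1 and Celsr2, with log2 differences of −0.22, −0.17, −0.25 and −0.24. Bcl9l was at 4.28, 4.59 and 5.43 FPKM in the Sham-vehicle group and at 3.61, 4.26 and 4.57 FPKM in the OVX-TPTD group (lowest, median and highest), so the groups overlapped, and its adjusted p was 0.221 from edgeR. The median over the 62 genes was −0.09, with 18 positive. This list was chosen from knowledge of the pathway with earlier results of these data known.

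Markers of the other cells that a ganglion could hold were summed per rat. A list of 8 perineurium and meninges genes, all above 0 in every rat, had a median log2 difference of −0.21 for OVX-vehicle against Sham-vehicle and of −0.22 for OVX-TPTD against Sham-vehicle. In each of these comparisons 3 genes had an unadjusted p under 0.05 from edgeR, where 4.82% and 15.1% of all entries did. Of 8 satellite glia genes 2 and 3 did in the same comparisons, at median log2 differences of −0.01 and −0.02. The summed level of the perineurium and meninges list, of which Ptgds held 348 FPKM on average, was 421 to 793 FPKM (median 522) in the Sham-vehicle group. It was 300 to 605 FPKM (median 518) in the OVX-vehicle and 244 to 1008 FPKM (median 428) in the OVX-TPTD group. The part of these cells in the lower members was not tested. A list of 8 myelinating Schwann cell genes, all above 0 in every rat, had a median log2 difference of 0.13 for OVX-vehicle against Sham-vehicle. In it 3 genes had an unadjusted p under 0.05 from edgeR, against 4.82% of all entries. For OVX-TPTD against OVX-vehicle the median was −0.15, with 2 such genes, against 3.65% of all entries. Its summed level was 2956 to 3876 FPKM in the Sham-vehicle, 2993 to 4641 FPKM in the OVX-vehicle and 2932 to 3850 FPKM in the OVX-TPTD group. Rspo3 had an r of −0.22 with this list (permutation p = 0.289, adjusted p = 0.837) and a rho of −0.32 (permutation p = 0.138, adjusted p = 0.766), with r = −0.20 without the 2 farthest rats, and the part of these cells in its differences was not tested. The fibroblast list had a median of 0.09 for OVX-TPTD against OVX-vehicle and the skeletal muscle list one of −0.36, over 5 tested genes. Of the 400 pairs of the 40 member genes with 10 marker lists, 0 passed after adjustment by Pearson's r, and 1 passed by Spearman's rho. This pair, Fzd4 with satellite glia, was chosen after its value was seen and had r = −0.70 (permutation p = 0.00094, adjusted p = 0.174; r = −0.60 without the 2 farthest rats) and rho = −0.78 (permutation p = 3e-05, adjusted p = 0.012), over 24 rats with group means removed. The satellite glia list itself had r = −0.72 with the neuron list, which held the smallest permutation p for Pearson's r of all pairs (0.00063). A relation with satellite glia therefore cannot be told apart from an opposite relation with neurons.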

How the data were processed

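Poly(A) RNA libraries of 24 rats were sequenced from both ends, and the study's methods name TopHat2 (version 2.0.14) for alignment to rn6, after bcl2fastq (version 1.8.4) in the submitters' processing notes. The authors deposited for each rat estimated counts per entry, of which 86.4% were whole within 0.001, and FPKM, computed by the authors with commercial software from these alignments. Coordinates are those of the deposited table. The entries were selected by name, and the members and all gene lists were chosen with earlier results of these data known.

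Counts were rounded and tested with edgeR 4.0.16 (quasi-likelihood, filterByExpr, TMM factors 0.969 to 1.02, 3 groups in 1 fit) under R 4.3.3, with Benjamini-Hochberg adjustment over 12645 entries and a threshold of 0.05. FPKM were compared on log2(FPKM), without a pseudocount, by an exact two-sided permutation test over all 12870 divisions of 16 rats, for the 13024 entries above 0 in all rats, with a p under 0.05 and a log2 difference above 0.25 as in the study's thresholds. Marker lists were related to members by Pearson's r and Spearman's rho with permutation p. Genes were given in full where they had an unadjusted edgeR p under 0.05, passed the permutation thresholds or were among the 2 highest of their role, and of the wider list at most 4 per comparison, by smallest p. DESeq2 1.42.0, limma 3.58.1 (log2(FPKM + 0.1) or + 1), no count filter, no TMM factors, only the groups compared, blocks, a mean of at least 1 FPKM and leaving out each rat were alternatives. The scripts were tested on simulated data. No 2 libraries of the same group were duplicates (chi-square per gene 5.59 to 39.8 between replicates). Libraries of different groups were not compared in this way. The labels do not give litters or cages, so p-values set group differences only against the spread between these rats. The study chose OVX rats by average body weight and a preceding heat withdrawal test, and Sham-vehicle rats by that test. Whether this choice affected that spread was not tested. Counts differ in precision with depth, and genes at few reads have wide errors.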

Additional observations from a re-analysis of the deposited data

Results flagged for a closer look

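In 6 of 54 group and gene pairs checked, 1 rat stood apart from the other 7 of its group, and chance gives about 1 in 20. Dkk3 was lowest in OVX-vehicle replicate 2, at 23.6 FPKM with the next rat at 29.7 FPKM. Lgr5 was highest in Sham-vehicle replicate 5, at 19.5 FPKM with the next at 16.7 FPKM. Lrp6 was lowest in OVX-vehicle replicate 3, at 4.87 FPKM with the next at 6.01 FPKM. Wnt16 was highest in Sham-vehicle replicate 7, at 7.86 FPKM (next 6.32 FPKM), and lowest in OVX-TPTD replicate 6, at 3.83 FPKM (next 5.50 FPKM). Wnt6 was highest in OVX-TPTD replicate 5, at 8.83 FPKM with the next at 7.46 FPKM. The flagged rats differ from gene to gene.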

How the results depend on the processing

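No member was called after adjustment under any of 33 settings, with a smallest adjusted p of 0.0880. Leaving out each rat gave 0 member calls in every comparison from edgeR, 0 to 2, 0 and 1 to 14 calls over all entries in the OVX-vehicle vs Sham-vehicle, OVX-TPTD vs OVX-vehicle and OVX-TPTD vs Sham-vehicle comparisons, and, by the permutation thresholds, 2 to 3, 0 to 4 and 2 to 5 members and 175 to 258, 171 to 241 and 276 to 509 entries. The 0 came without OVX-vehicle replicate 1, 5 or 6 or OVX-TPTD replicate 2, 4 or 5, and the 4 without OVX-vehicle replicate 2. The 14 came without OVX-vehicle replicate 1.

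Over all entries in the OVX-vehicle vs Sham-vehicle comparison, edgeR called 1, and 6 were called by DESeq2, 2 with no count filter or with limma on log2(FPKM + 0.1) or log2(FPKM + 1), and 0 with only the groups compared or with OVX-vehicle replicate 1 as a Sham-vehicle rat. In the OVX-TPTD vs OVX-vehicle comparison DESeq2 called 1. In the OVX-TPTD vs Sham-vehicle comparison edgeR called 4, against 40 by DESeq2, 9 without TMM factors, 1 with OVX-vehicle replicate 1 as a Sham-vehicle rat and 7 by limma on log2(FPKM + 1).

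The permutation thresholds let through 64, 64 and 148 entries on log2(FPKM + 1), and 111 and 112 in the first 2 comparisons at a mean of at least 1 FPKM. Members passing were 1 in each OVX-TPTD comparison on log2(FPKM + 1) and 1 against OVX-vehicle at that mean, where Dkk2 falls below it.

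The replicate numbers were not shown to pair the rats. In the OVX-vehicle vs Sham-vehicle, OVX-TPTD vs OVX-vehicle and OVX-TPTD vs Sham-vehicle comparisons, 0, 0 and 1 of 8 same-numbered pairs correlated over 0.1. In that order, 1, 0 and 2 rats correlated best with their own number. Mean r was 0.017, 0.048 and −0.0051 for same-numbered pairs and −0.0023, −0.0069 and 0.00075 for other pairs. In OVX-TPTD vs OVX-vehicle, same-numbered r ran from 0.0091 to 0.097, so these values cannot exclude a weak pairing. With the replicate block 0 members were called, and 0, 0 and 10 entries in all.

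Among differences near 0, the sign turned in some settings. Dkk2 in the OVX-vehicle vs Sham-vehicle comparison ranged from −0.17 to 0.0031 and Fzd2 in the OVX-TPTD vs OVX-vehicle comparison from −0.11 to 0.054 with 1 rat left out. Rspo3 in the OVX-TPTD vs Sham-vehicle comparison ranged from −0.18 to 0.078, and was 0.066 with OVX-vehicle replicate 1 as a Sham-vehicle rat. Fzd1 in the OVX-vehicle vs Sham-vehicle comparison was −0.11 in that setting (unadjusted p = 0.163 from edgeR). Pairs of members and marker lists with an absolute r of at least 0.5 were 19, and 10 with group means kept. The causes were not tested. Rspo3 was counted at 10 to 39 reads per rat, and the part of counting in its spread was not tested.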
